A study of Mus musculus with 8 samples.

Results

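The peptides of the corticotropin-releasing hormone (CRH) family, relaxin-3 and the pituitary adenylate cyclase-activating polypeptide (PACAP) were examined together with the binding protein and the receptors that receive them. The set of 10 genes was composed of the ligands Crh, Ucn, Ucn3, Rln3 and Adcyap1, the binding protein gene Crhbp, and the receptor genes Crhr1, Crhr2, Rxfp3 and Adcyap1r1, taken by name from a count table of 22430 genes. All 10 passed the filter on low counts, as did 16730 genes in total. The set was selected on the measured difference of several of these genes between the ages, so the age differences of the 10 genes are given as a description. No p is printed for them, and whether a gene passed the limits used for the whole table is stated as a property of its values that the choice of the set already used.

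RNA was obtained from brains of C57Bl/6JRj male mice, of which 4 were 6-month-old young adults (6m) and 4 were aged, at 24 months (24m), and the labels name no treatment or allele for either group. The labels name the tissue both as whole brain and as a hemisphere. Polyadenylated RNA was made into directional libraries and sequenced on an Illumina instrument, and each of the 8 libraries came from a different mouse. Total counts were 63460940 to 74513571 in 6m and 72936345 to 103462414 in 24m, the deepest library being 24m replicate 1. That library also stood apart in profile, since chi-square per degree of freedom was 179 to 417 between it and the other aged libraries, 13 to 61.2 among those, and 8.18 to 48.3 among the young libraries. Without it, 8265 genes were called in place of 7295, and among the 10 genes the same 5 were called as with it. Neuronal marker genes fixed as a list were abundant in every library, with summed levels of 3208 to 3367 CPM (counts per 1e+06 of the library total after TMM scaling, the trimmed mean of M values) in 6m and 3473 to 3763 CPM in 24m.

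CRH, released from neurons of the hypothalamic paraventricular nucleus, drives the pituitary to secrete adrenocorticotropin and so opens the hormonal stress response, and it also acts as a transmitter in cortex, amygdala and brainstem. Urocortin is made mainly by the peptidergic neurons of the Edinger-Westphal nucleus in the midbrain, urocortin 3 by hypothalamic and amygdalar neurons, and relaxin-3 mainly by the nucleus incertus of the pontine brainstem, whose axons reach hypothalamus and forebrain. PACAP is a widely expressed peptide of the secretin family. CRHR1, CRHR2 and PAC1, the product of Adcyap1r1, are receptors that raise cyclic AMP, whereas RXFP3, the receptor of relaxin-3, couples to inhibitory G proteins.

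Of the 10 genes, 5 lay past the limits set for the whole table, a count from which nothing is read because the same contrast chose the set. A gene was called where its log2 fold change reached 0.58 in either direction and the edgeR quasi-likelihood test, adjusted by Benjamini-Hochberg, gave 0.05 or less. Over all tested genes, 43.6% were called, made up of 25.3% higher and 18.3% lower at 24m. Crh, Ucn and Rln3 were lower at 24m, and Rxfp3 and Adcyap1r1 were higher. The log2 fold change (24m over 6m) was below 0 for all 5 ligands, with a median of -1.25, beside -0.0034 over all tested genes. Crh, Ucn, Ucn3 and Rln3 belong to the decile of shortest genes, described further on, whose median was -0.67. With the length trend removed, Ucn3 was at 0.15. The median of the 4 receptors was 0.48, with Crhr1 (-0.03) and Crhr2 (-0.05) close to 0 and Rxfp3 (0.99) and Adcyap1r1 (1.98) well above it. The values of 5 of the genes did not overlap between the ages, which was the case for 55.2% of all tested genes. Rxfp3 was the called gene closest to the limit of 0.58 with a log2 fold change of 0.99, and Ucn3 was the closest outside it with -0.49.

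**Figure D1:**
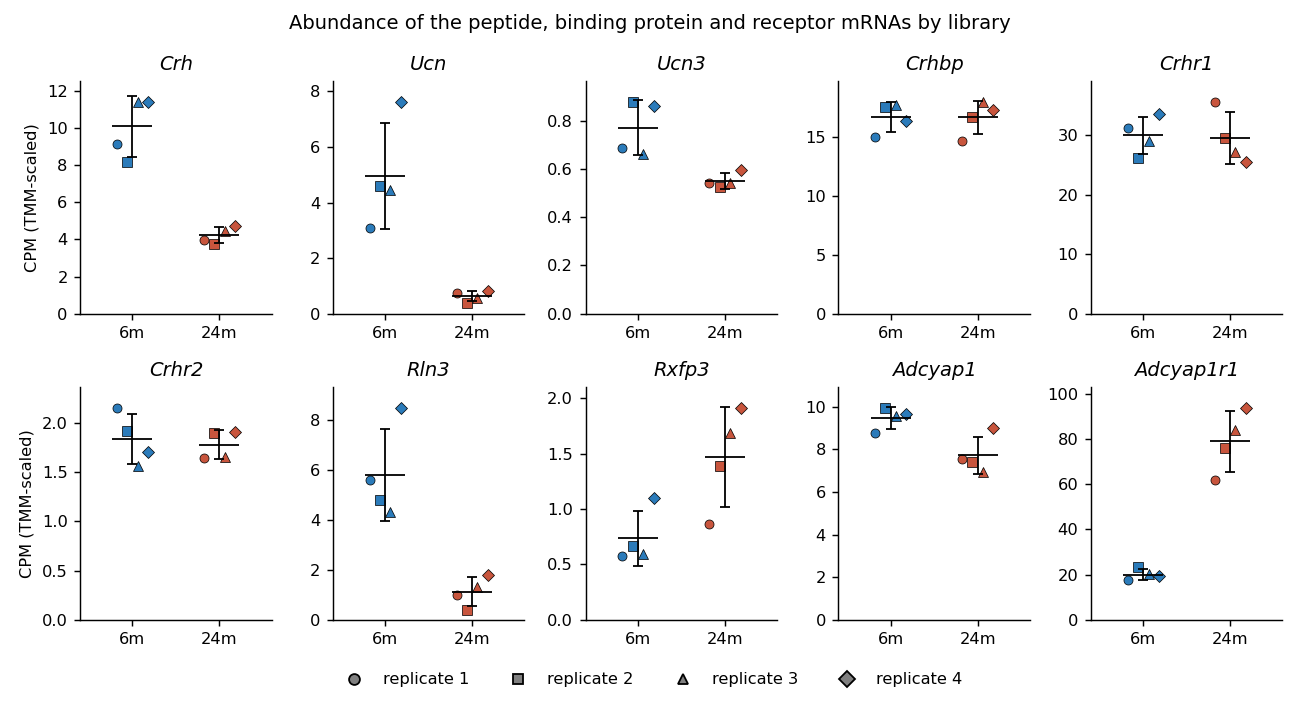
Level of each of the 10 mRNAs in TMM-scaled CPM, on the vertical axis, at 6m (blue) and 24m (red); symbols are single libraries, and horizontal bars with whiskers are the mean ± SD of 4 libraries. Crh, Ucn, Ucn3, Rln3 and Adcyap1r1 show no overlap between the ages, and Adcyap1r1 is the one of these that is higher at 24m.

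Urocortin had the largest difference among the 10 genes. Ucn was measured at 3.09, 4.58, 4.46 and 7.61 CPM in 6m replicates 1 to 4 and at 0.734, 0.387, 0.576 and 0.802 CPM in 24m replicates 1 to 4. Every 24m library lay well under the lowest 6m library, and 6m replicate 4 was the highest. The mean was 4.94 ± 1.91 CPM (SD, n = 4) at 6m and 0.625 ± 0.185 CPM (n = 4) at 24m, a level 7.85-fold higher in the young brain and a log2 fold change of -2.97 ± 0.31 (SE). The values rest on 203 to 503 counts per library at 6m and 31 to 76 at 24m. In whole brain RNA, fewer cells of a type and less of an mRNA per cell cannot be told apart.

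The gene of urocortin lies on the minus strand of chromosome 5 (GRCm39, chr5:31295334-31296231) and has 635 bases of exon, the shortest of the 10. All of its exons lie within Trim54, a muscle-associated tripartite motif gene on the opposite strand. The libraries kept strand, but whether the counting used it was not stated, so the counts of both genes could hold reads of the other. Trim54 was measured at 1.92, 2.83, 1.84 and 1.8 CPM in the 6m libraries and at 1.36, 0.986, 0.937 and 0.745 CPM in the 24m libraries. Its log2 fold change was -1.06 ± 0.23 and passed the test (edgeR quasi-likelihood test, Benjamini-Hochberg adjusted p = 0.00293). Skeletal muscle markers also moved, since 5 of the 6 listed fell, beside 18.3% of all tested genes. Their summed levels were 23.6 to 25.5 CPM at 6m and 11.9 to 15.9 CPM at 24m. Most of that sum was Acta1, at 19 to 21.3 CPM at 6m and 9.74 to 13.1 CPM at 24m. Among the shortest genes 49.7% were called lower, as described further on, and the lengths of these markers are not given. The part of the muscle markers in the Ucn difference was not tested.

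Relaxin-3 followed urocortin in size. The 6m libraries held Rln3 at 5.59, 4.81, 4.33 and 8.46 CPM and the 24m libraries at 1.01, 0.387, 1.31 and 1.79 CPM. As for Ucn, replicate 4 was the highest of the young libraries, replicate 2 the lowest of the aged ones, and the ages did not overlap. The mean went from 5.8 ± 1.85 to 1.12 ± 0.586 CPM (SD, n = 4 each), 5.14-fold lower at 24m, with a log2 fold change of -2.36 ± 0.39. Rln3 lies on chromosome 8 (chr8:84769290-84771629, minus strand), has 902 bases of exon and overlaps no annotated gene.

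Among 13538 tested genes that averaged 1 CPM or more, Rln3 was the gene whose pattern over the 8 libraries was closest to that of Ucn, and Ucn the closest to Rln3, with a root mean square difference of 0.47 between their centred log2 CPM values. This measure includes the difference between the ages on which both were chosen, and genes with like fold changes are near each other by it. The second gene on both lists was Cartpt, the precursor of cocaine- and amphetamine-regulated transcript peptides that are also made in the Edinger-Westphal nucleus, at 0.58 from Ucn and 0.63 from Rln3. The third was Pura, a DNA- and RNA-binding protein gene, for Ucn (0.67) and Zar1, an oocyte RNA-binding protein gene, for Rln3 (0.64). Cartpt was measured at 67.6, 69.4, 70.8 and 86.6 CPM in 6m and 28.3, 15.5, 16.7 and 19.3 CPM in 24m, and it fell by 1.89 ± 0.19 on the log2 scale (edgeR adjusted p = 6.5e-05). Nucb2, the precursor of nesfatin that is made in the same midbrain neurons, had a log2 fold change of -0.38 ± 0.15 and was not called, but it was called lower with the GC trend removed (-0.66) and by DESeq2 on quantile-normalized counts (-0.70).

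To show the start regions of the most strongly lower ligand genes of the set, the 250 bases before the annotated start of Ucn and of Rln3 are given side by side, read 5′ to 3′ along the strand of the gene (RefSeq, GRCm38.p6). Capitals mark matches to 4 motifs searched on both strands, the cyclic AMP response element TGACGTCA, its core TGACG, the TATA box TATAAA and the GC box GGGCGG. The window of Ucn spans chr5:31138896-31139145 and that of Rln3 chr8:84044980-84045229, both on the minus strand.
Ucn: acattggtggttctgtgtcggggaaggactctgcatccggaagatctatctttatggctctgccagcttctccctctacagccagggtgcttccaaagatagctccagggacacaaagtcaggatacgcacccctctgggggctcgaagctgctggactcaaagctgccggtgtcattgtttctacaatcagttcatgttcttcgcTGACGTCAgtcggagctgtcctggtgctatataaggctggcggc
Rln3: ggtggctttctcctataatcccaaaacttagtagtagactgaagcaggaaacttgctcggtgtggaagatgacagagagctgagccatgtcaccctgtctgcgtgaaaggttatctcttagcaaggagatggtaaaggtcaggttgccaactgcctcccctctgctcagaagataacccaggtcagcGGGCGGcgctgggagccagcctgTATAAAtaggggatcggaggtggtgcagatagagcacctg
Ucn held a full cyclic AMP response element starting at -44 from the gene start, which contains the core on both strands. The full element was present in 1.55% of 32851 promoter windows of this length. Rln3 had no such match and held a TATA box at -40 and a GC box at -63, motifs found in 12.4% and 32.7% of windows. The search took exact letters only and so passed over near matches, such as tatataag close to the end of the Ucn window. These are matches of letters and carry no measurement of binding.

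The brain regions that make urocortin and relaxin-3 are small and lie in the midbrain and brainstem. Markers of midbrain and hindbrain at large were set beside them. Of 15 midbrain and hindbrain markers, 1 rose and 4 fell (Hoxa2, Hoxb2, Hoxb3 and Fev), beside 25.3% and 18.3% of all tested genes, with a median log2 fold change of -0.87, and their summed level was 24 to 38.1 CPM at 6m and 16.1 to 26.7 CPM at 24m. None of the 15 was at 0 in all libraries. The marker that rose was Slc6a5, the glycine transporter of inhibitory hindbrain and spinal neurons, at 0.651 to 1.05 CPM at 6m and 2.81 to 6.6 CPM at 24m (log2 fold change 2.22 ± 0.31, edgeR adjusted p = 0.000331). The summed level of 7 Hox genes, which mark hindbrain and spinal cord, was 14.7, 3.79, 11.2 and 17.6 CPM in the 6m libraries and 10.1, 2.37, 1.61 and 5.25 CPM in the 24m libraries. The ages overlapped in this sum, with 3 of the 4 young libraries above all aged ones. Hox genes do not mark the midbrain, where urocortin is mainly made. Tph2, the serotonin-synthesizing enzyme of the raphe nuclei, was 4.77, 6.31, 2.6 and 4.48 CPM in the 6m libraries and 0.714, 0.998, 2.02 and 5.53 CPM in the 24m libraries, of which replicate 4 lay inside the young range and the others under it. The part of these markers in the Ucn and Rln3 differences was not tested.

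**Figure D2:**
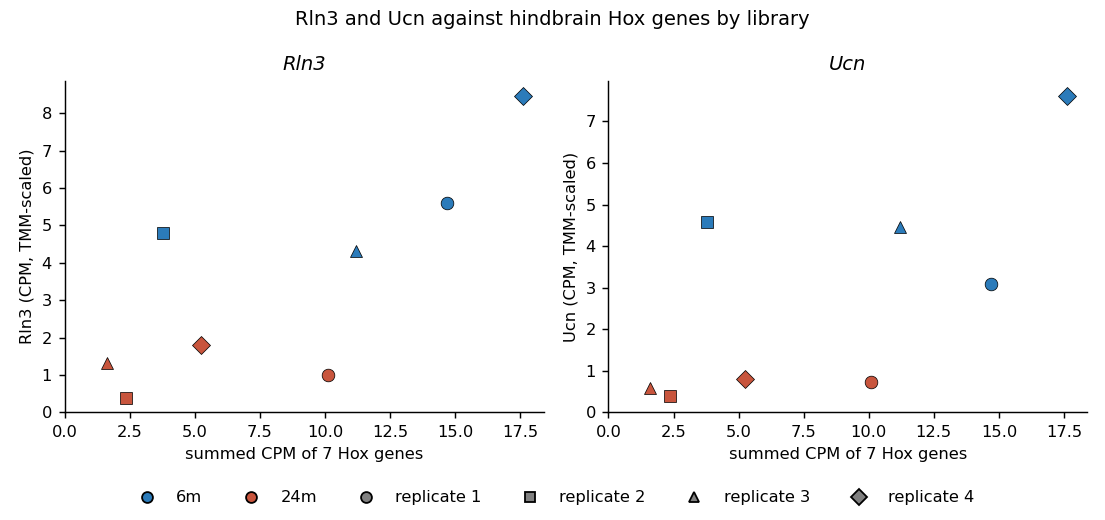
Rln3 (left) and Ucn (right) in TMM-scaled CPM on the vertical axis against the summed CPM of 7 hindbrain Hox genes on the horizontal axis, one point per library (6m blue, 24m red, symbols by replicate). The 4 aged libraries lie at 1.79 CPM of Rln3 or less and 0.802 CPM of Ucn or less over a Hox range of 1.61 to 10.1 CPM, which overlaps that of the young libraries. These Hox genes mark hindbrain and spinal cord, not the midbrain in which urocortin is mainly made.

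Crh, the hypothalamic releasing hormone, was lower at 24m in every library. Its level was 9.16, 8.2, 11.4 and 11.4 CPM at 6m and 3.99, 3.78, 4.45 and 4.72 CPM at 24m. The spread within each age was narrow, and the gap between the lowest young and the highest aged library exceeded the range of either age. Means were 10.1 ± 1.63 and 4.24 ± 0.43 CPM (SD, n = 4 each), a level 2.37-fold higher at 6m and a log2 fold change of -1.25 ± 0.14. With the trend of gene length removed, described further on, Crh was at -0.57 ± 0.18 and not called. The nearest patterns over the 8 libraries were those of Sox4 (root mean square difference 0.13), a transcription factor of immature neurons, Igfbpl1 (0.14) and Mansc4 (0.14). Crh lies at chr3:19747565-19749655 on the minus strand and has 1415 bases of exon.

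Of 11 hypothalamic markers tested, 5 fell, none rose and 6 were not called, beside 18.3% lower and 25.3% higher among all tested genes, with a median log2 fold change of -0.67. Those that fell were peptide precursor genes, Oxt (-1.25), Trh (-0.67), Pmch (-1.18), Hcrt (-1.27) and Npvf (-2.37). Among those not called, the transcription factor genes Otp (-0.03) and Nkx2-1 (-0.02) were close to 0. Rax (-0.67), also a transcription factor gene, was as low as Trh and just missed the call (edgeR adjusted p = 0.0553). Agrp (0.39), Nr5a1 (0.66) and Fezf1 (0.43) were above 0 without being called. The summed level of the list was 128 to 171 CPM at 6m and 52.1 to 98.4 CPM at 24m, without overlap, and most of it came from Oxt, Trh, Pmch and Hcrt. Short genes were lower over the whole table, with a median of -0.67 and 49.7% called lower in the shortest decile. No count of these markers with the length trend removed is given. Pituitary markers were near the floor, at summed levels of 2.89 to 6.15 CPM at 6m and 0.699 to 2.2 CPM at 24m, and Fshb was at 0 in all libraries. Markers of the telencephalon, where Crh is made by cortical interneurons, were at 1420 to 1747 CPM and 1682 to 2065 CPM, with 4 of 10 higher and none lower, beside 25.3% and 18.3% of all tested genes. Most of that sum was Slc17a7, a vesicular glutamate transporter gene, which was not called (0.27). The part of these shifts in the Crh difference was not tested.

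CRH and urocortin bind the same receptors, and their mature peptides lie at the end of the precursors. The coding sequences have 564 bases for Crh and 369 for Ucn in the GRCm39 annotation, and the final 132 bases, 44 codons with the stop codon, are shown so that the related peptides can be compared, with capitals where both carry the same base.
Crh: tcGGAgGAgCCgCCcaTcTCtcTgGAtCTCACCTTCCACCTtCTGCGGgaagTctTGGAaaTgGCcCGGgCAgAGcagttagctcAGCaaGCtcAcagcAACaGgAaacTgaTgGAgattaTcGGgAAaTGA
Ucn: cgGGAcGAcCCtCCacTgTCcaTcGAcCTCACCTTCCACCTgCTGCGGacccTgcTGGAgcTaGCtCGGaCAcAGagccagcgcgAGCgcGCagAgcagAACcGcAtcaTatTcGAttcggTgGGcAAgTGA
The 2 stretches share 73 of 132 bases (55.3%). The count of Crh over that of Ucn within a library, a ratio that no scaling between libraries enters, was 2.96, 1.79, 2.56 and 1.5 at 6m and 5.43, 9.77, 7.73 and 5.89 at 24m. The ratio was higher in every aged library than in any young one.

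Ucn3 and Adcyap1, the other ligands, were not called. Ucn3, a selective ligand of CRHR2, was scarce, at 0.686, 0.877, 0.663 and 0.862 CPM at 6m and 0.541, 0.524, 0.54 and 0.596 CPM at 24m. All aged libraries were under all young ones, but the difference was small, with a log2 fold change of -0.49 ± 0.18 and 40 to 62 counts per library. Adcyap1, which encodes PACAP, was 8.75, 9.93, 9.59 and 9.68 CPM at 6m and 7.54, 7.4, 6.96 and 8.99 CPM at 24m. Only 24m replicate 4 reached into the young range, and the log2 fold change was -0.30 ± 0.11. The patterns nearest to Adcyap1 were those of Rnf227, Fgf9 and Ccdc30, each with a root mean square difference of 0.06.

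The receptor of PACAP, Adcyap1r1, had the largest increase of the set. It was measured at 17.4, 23.2, 20.1 and 19.3 CPM in the 6m libraries and at 61.6, 76.1, 84.1 and 93.5 CPM in the 24m libraries. The lowest aged library, replicate 1, was still more than the highest young library by a wide margin. The mean was 20 ± 2.42 CPM at 6m and 78.9 ± 13.5 CPM at 24m (SD, n = 4 each), 3.94-fold higher at 24m with a log2 fold change of 1.98 ± 0.14. It is a gene of 19 exonic blocks and 7964 exonic bases on chromosome 6 (chr6:55428849-55478436, plus strand), and it overlaps no annotated gene. Glial and endothelial markers, which include cells that express this receptor, also moved. Of these, 5 of 8 were higher and 1 lower, beside 25.3% and 18.3% of all tested genes. Their summed levels were 2144 to 2774 CPM at 6m and 2718 to 3134 CPM at 24m. Of the neuronal markers, 4 of 8 were higher and 1 lower. The median log2 fold change was 0.85 for neuronal and 0.90 for glial and endothelial markers. The genes of this list that were higher were those of oligodendrocytes, astrocytes and microglia, whereas the endothelial genes Cldn5 (-1.06, called lower) and Pecam1 (-0.24, not called) were below 0, and the part of the list was not tested.

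Rxfp3, the receptor of relaxin-3, was the other gene called higher, at a much lower level. It was 0.579, 0.665, 0.597 and 1.1 CPM at 6m and 0.869, 1.39, 1.69 and 1.91 CPM at 24m. The ages overlapped, because 6m replicate 4 exceeded 24m replicate 1. Means were 0.736 ± 0.248 and 1.47 ± 0.453 CPM (SD, n = 4 each) and the log2 fold change was 0.99 ± 0.29, based on 36 to 167 counts per library. Leaving out 6m replicate 4 gave 1.25, and DESeq2 on quantile-normalized counts gave 0.72 without a call. Rxfp3 is encoded by a single exonic block of 4275 bases on chromosome 15 (chr15:11033803-11038077, minus strand).

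The promoter windows of the receptors that were higher are printed for comparison with those of the ligands, in the same notation. The window of Rxfp3 is chr15:11037969-11038218 on the minus strand and that of Adcyap1r1 chr6:55451728-55451977 on the plus strand (RefSeq, GRCm38.p6).
Rxfp3: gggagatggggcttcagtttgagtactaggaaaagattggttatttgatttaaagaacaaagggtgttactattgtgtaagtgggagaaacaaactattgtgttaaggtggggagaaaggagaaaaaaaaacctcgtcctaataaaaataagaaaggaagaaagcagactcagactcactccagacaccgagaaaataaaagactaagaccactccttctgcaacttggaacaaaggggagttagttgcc
Adcyap1r1: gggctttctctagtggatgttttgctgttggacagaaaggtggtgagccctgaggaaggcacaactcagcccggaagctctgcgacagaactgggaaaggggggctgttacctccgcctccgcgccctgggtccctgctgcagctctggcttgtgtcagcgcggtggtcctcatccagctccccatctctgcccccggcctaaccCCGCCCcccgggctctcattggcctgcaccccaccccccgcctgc
Rxfp3 held none of the 4 motifs, and Adcyap1r1 held a GC box on the opposite strand at -45. The base composition differed widely, with 39.6% G and C in the window of Rxfp3 and 65.6% in that of Adcyap1r1, against 54% for Ucn and 52.8% for Rln3. An entry was found for 9 of the 10 genes, all but Crh. In the others, the core of the cyclic AMP response element (17.8% of windows) was found in Crhbp at -64 and in Adcyap1 at -91 from the first of its 2 listed starts. A TATA box lay at -39 in Crhr2 and at -58 from the second start of Adcyap1, and a GC box lay at -13 in Crhr1. The core element at -242 from the second start of Adcyap1 is the same stretch as that at -91 from the first. Ucn3 held none of the motifs.

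The receptors of CRH and the urocortins and their binding protein were not called. Crhr1, the main receptor of CRH, was 31.2, 26.2, 29 and 33.6 CPM at 6m and 35.6, 29.5, 27.2 and 25.6 CPM at 24m, with a log2 fold change of -0.03 ± 0.12. Crhr2, preferred by urocortin 3, was 1.56 to 2.15 CPM at 6m and 1.65 to 1.91 CPM at 24m (log2 fold change -0.05 ± 0.15). Crhbp, whose secreted product binds CRH and urocortin and keeps them from their receptors, was 15, 17.6, 17.8 and 16.4 CPM at 6m and 14.7, 16.7, 18 and 17.3 CPM at 24m (log2 fold change -0.0014 ± 0.10). The ages overlapped for all 3 genes.

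The ratio of receptor or binding protein counts to ligand counts within a library moved accordingly. Crhbp over Crh was 1.64, 2.14, 1.56 and 1.44 at 6m and 3.69, 4.42, 4.05 and 3.67 at 24m, with means of 1.7 ± 0.311 and 3.96 ± 0.356 (SD, n = 4 each). Crhr1 over Crh went from 3.02 ± 0.374 to 7.06 ± 1.6 (SD, n = 4 each). With TMM scaling the receiving side was close to constant and the ligand lower, whereas with the length trend removed Crhbp was at 0.46 and Crh at -0.57. Crh has 1415 exonic bases, Crhbp 2209 and Crhr1 3871, so these ratios set a short gene against longer ones.

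For relaxin-3 and PACAP the receptor was higher as well. Rxfp3 over Rln3 was 0.104, 0.138, 0.138 and 0.131 at 6m and 0.857, 3.58, 1.29 and 1.07 at 24m, with means of 0.128 ± 0.0164 and 1.7 ± 1.27. The aged mean depended on 24m replicate 2, which held 31 counts of Rln3, and was 1.07 ± 0.218 (n = 3) without it. Adcyap1r1 over Adcyap1 was 1.99, 2.34, 2.09 and 1.99 at 6m and 8.18, 10.3, 12.1 and 10.4 at 24m. None of these ratios overlapped between the ages.

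**Figure D3:**
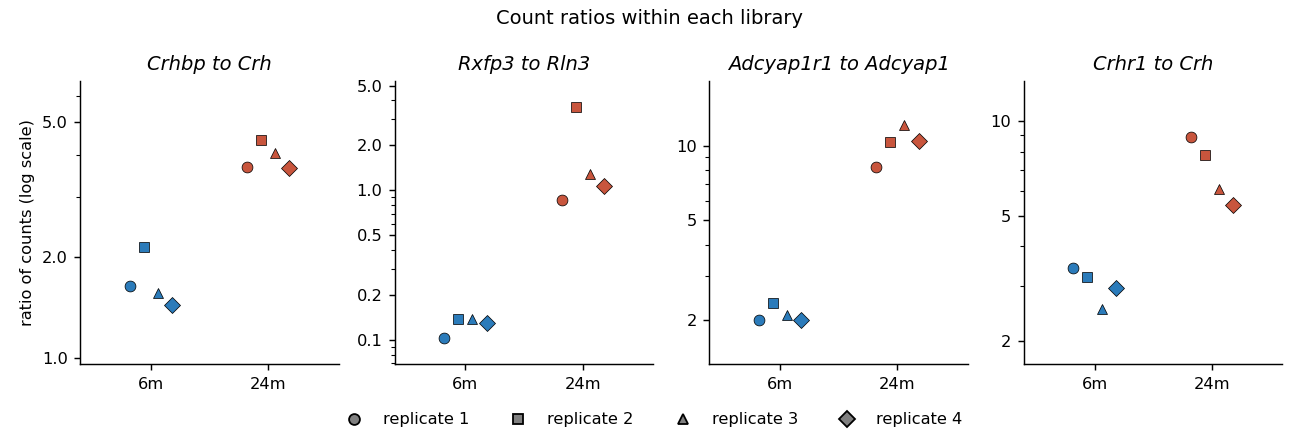
Counts of a binding protein or receptor gene divided by the counts of its ligand gene within each library, on logarithmic vertical axes, at 6m (blue) and 24m (red), with symbols by replicate. All 4 ratios are higher in every aged library, and 24m replicate 2 stands apart at 3.58 for Rxfp3 over Rln3.

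Levels were compared between genes in CPM per kilobase of exon. At 6m the order of means was Ucn (7.78), Crhr1 (7.76), Crhbp (7.57), Crh (7.11), Rln3 (6.43), Adcyap1r1 (2.51), Adcyap1 (1.86), Ucn3 (0.522), Crhr2 (0.344) and Rxfp3 (0.172). Neighbours among the first 5 overlapped in their libraries, whereas from Rln3 downward each gene was separated from the next. At 24m the order was Adcyap1r1 (9.9), Crhr1 (7.61), Crhbp (7.56), Crh (2.99), Adcyap1 (1.51), Rln3 (1.25), Ucn (0.984), Ucn3 (0.372), Rxfp3 (0.343) and Crhr2 (0.333). Overlap between neighbours was found among Adcyap1r1, Crhr1 and Crhbp, among Adcyap1, Rln3 and Ucn, and among Ucn3, Rxfp3 and Crhr2. Urocortin mRNA, per length among the first 5 overlapping genes in the young brain, had the seventh mean in the aged brain. The mean of the PACAP receptor moved from the sixth place to the first.

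Fold changes depended on the length of genes over the whole table. In the decile of tested genes with the shortest exons (38 to 2044 bases) the median log2 fold change was -0.67 and 49.7% were called lower, and in the decile with the longest exons the median was 0.52. The marker counts given above were made without removal of this trend. Crh, Ucn, Ucn3 and Rln3 belong to the shortest decile. Of the 1668 genes there, 0.06% had a lower fold change than Ucn, 0.659% than Rln3, 11.3% than Crh and 62.9% than Ucn3. Adcyap1r1, in the seventh decile of length, was above 95.2% of the genes of similar length, and Rxfp3, in the fourth, above 89.3%.

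When a smooth trend of length was removed from each library, the log2 fold change was -2.17 ± 0.32 for Ucn, -1.55 ± 0.41 for Rln3, 1.05 ± 0.30 for Rxfp3 and 1.69 ± 0.11 for Adcyap1r1. Crh was then -0.57 ± 0.18 and no longer called, Ucn3 turned to 0.15 ± 0.21 and Crhbp to 0.46 ± 0.14. The decrease of Ucn and Rln3 and the increase of both receptors stayed past the limits under this scaling. Removal of a trend of GC content brought Adcyap1 to -0.58 ± 0.13, called lower, and left the calls of the others as they were.

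**Figure D4:**
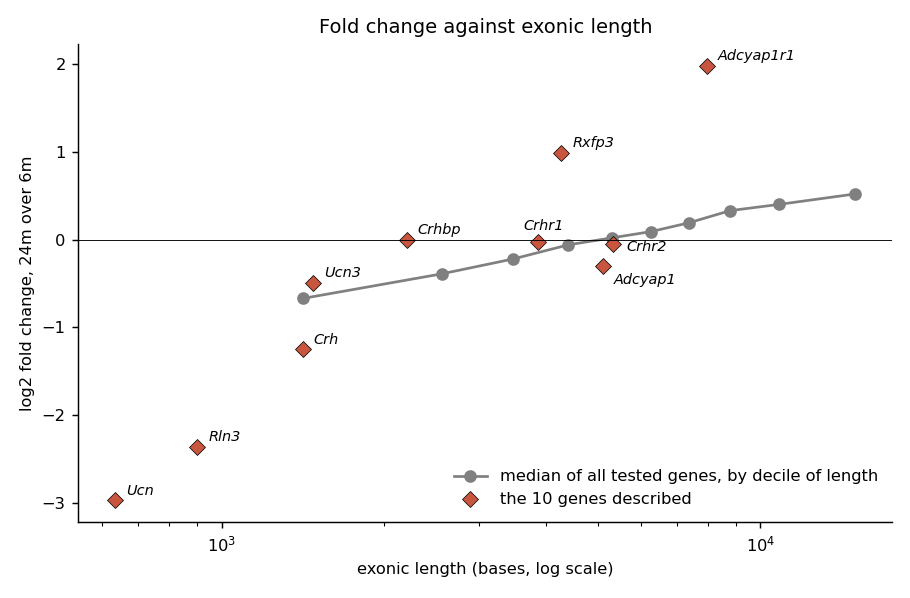
Log2 fold change of 24m over 6m on the vertical axis against exonic length in bases (logarithmic axis), for the 10 genes (red diamonds) and as medians of all tested genes in deciles of length, drawn at the median length of each decile (grey). Ucn, Rln3 and Crh lie below all grey medians (-0.67 to 0.52), and Adcyap1r1 and Rxfp3 lie above all of them.

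**Figure D5:**
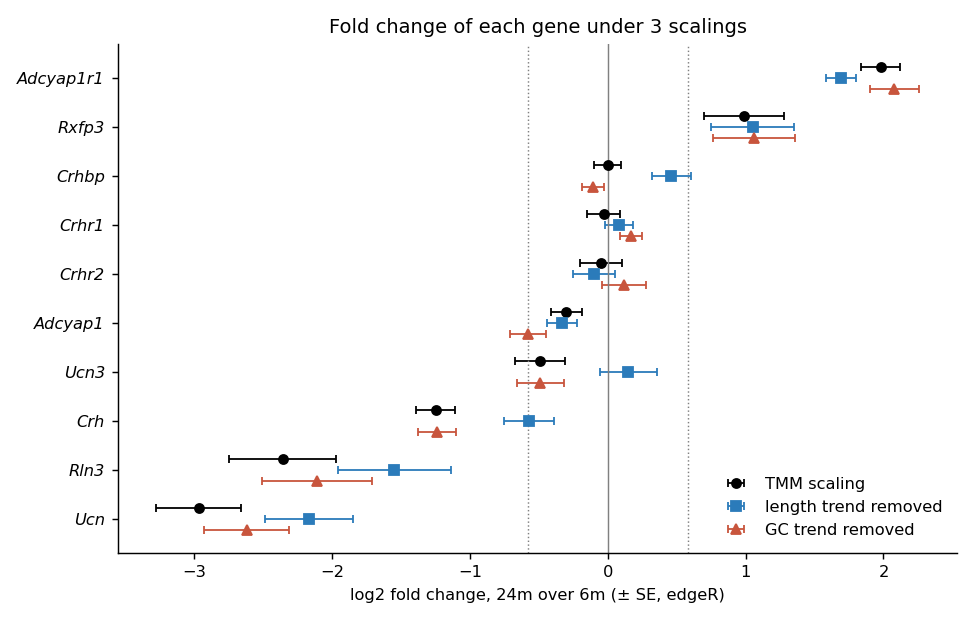
Log2 fold change (24m over 6m) with SE from edgeR, n = 4 libraries per age, on the horizontal axis for each gene, with TMM scaling (black), with the length trend removed (blue) and with the GC trend removed (red); dotted lines mark 0.58 and -0.58. With the length trend removed, Ucn and Rln3 stay far to the left at -2.17 and -1.55, and Crh moves to -0.57.

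Peptides and receptors related to the set were taken from a list of 15 genes of the urocortin, secretin and relaxin families. Of these, 12 were tested, 2 rose and 5 fell, 7 called in total, beside 43.6% called among all tested genes (25.3% higher and 18.3% lower). The median log2 fold change of the list was -0.56. Insl5, a relaxin-family peptide, had the lowest value at -2.02 ± 0.43 (edgeR adjusted p = 0.00267), with 0.625 to 0.979 CPM at 6m and 0.0802 to 0.357 CPM at 24m. Rln1, the mouse relaxin, fell by 0.72 on the log2 scale (edgeR adjusted p = 0.00883). Rxfp1, its receptor, rose by 1.24 ± 0.37 (edgeR adjusted p = 0.015), although its libraries overlapped between the ages, and Vipr1, a receptor of vasoactive intestinal peptide and PACAP, rose by 0.75 ± 0.16 (edgeR adjusted p = 0.0029). With the length trend removed, 2 of the 12 were called in place of 7, Insl5 (-1.31) and Vipr1 (0.64), and the calls of Rxfp1 (0.71) and Rln1 (-0.55) were lost. Vipr1 was at 0.40 and not called by DESeq2 on quantile-normalized counts.

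A list of 18 genes held G protein subunits, arrestins and members of the cyclic AMP pathway that act below receptors of this kind. Of these, 10 rose and none fell past the limits, beside 25.3% higher and 18.3% lower among all tested genes. The list had a median log2 fold change of 0.79 beside -0.0034 over all genes. Prkacb, a catalytic subunit of protein kinase A, had the largest increase at 2.42 ± 0.28 (edgeR adjusted p = 0.000118), from 18.3 ± 5.7 to 98 ± 30 CPM (SD, n = 4 each). The regulatory subunits of the same kinase, Prkar2a (2.11), Prkar2b (1.08) and Prkar1a (0.77), and Rapgef4 (0.80), a cyclic AMP-activated exchange factor, rose as well, and of these Prkar1a (0.39) and Rapgef4 (0.36) lost their call with the length trend removed. The G protein subunit genes Gnaq (2.03), which signals through phospholipase C, and Gnal (1.24), Arrb1 (1.88), which encodes an arrestin that switches receptors off, and the transcription factor Creb1 (1.29) with its coactivator Crtc1 (1.68) rose too. Gnas, the stimulatory subunit through which these receptors raise cyclic AMP, was named after its values were seen. It was 2414 to 2635 CPM at 6m and 1937 to 2051 CPM at 24m, a log2 difference of -0.31 ± 0.08 that was too small to be called although its edgeR adjusted p was 0.00791. It was at -0.75 and called lower with the length trend removed, and at 0.10 and not called on quantile-normalized counts. Crem, a cyclic AMP-responsive modulator, had the lowest value of the list at -0.45 and was not called. It was called lower with the length trend removed (-0.87), with the GC trend removed (-0.72) and on quantile-normalized counts (-0.76). The list then had 9 genes higher and 2 lower, 12 and 1, and 11 and 1 in that order.

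Of the stress axis beyond CRH, 12 genes were tested, 3 rose and 1 fell, beside 43.6% called among all tested genes, and the median log2 fold change was -0.01. Both corticosteroid receptors rose, Nr3c1 (the glucocorticoid receptor) from 1.68 ± 0.44 to 12.8 ± 4.5 CPM a difference of 2.93 ± 0.31 in log2 (edgeR adjusted p = 7.9e-05), and Nr3c2 (the mineralocorticoid receptor) from 3 ± 0.812 to 16.1 ± 5.69 CPM with 2.42 ± 0.29. Fkbp5, a chaperone that lowers the affinity of the glucocorticoid receptor and is itself induced by corticosteroids, rose by 0.95 ± 0.15 (edgeR adjusted p = 0.00057). Pomc, the precursor of adrenocorticotropin, fell with -0.84 ± 0.33 (edgeR adjusted p = 0.0487). The call of Pomc was lost on leaving out any library but 24m replicate 1, with adjusted p up to 0.122, and was at -1.27 without that one, in which Pomc was 10.4 CPM against 3.4 to 5.87 CPM in the other aged libraries. With the length trend removed, 2 of the 12 genes were called in place of 4, Nr3c1 (2.64) and Nr3c2 (2.09), and Fkbp5 was 0.53 and no longer called.

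Enzymes and helpers that cut and finish peptide precursors formed the last list. Of 8 tested, 1 rose and 1 fell, beside 43.6% called among all tested genes, and the median log2 fold change was 0.01. Furin, a convertase of the secretory pathway, rose by 0.78 ± 0.09, and Pcsk1n, which encodes an inhibitor of prohormone convertase, fell with -1.06 ± 0.15 (edgeR adjusted p = 0.0003), from 3499 ± 375 to 1680 ± 314 CPM (SD, n = 4 each). With the length trend removed, Furin was 0.38 and no longer called, and the list had none higher and 3 lower.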

How the data were processed

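Counts per gene were deposited as whole numbers before any normalization, with no replicates pooled. According to the processing notes and methods, adapters were removed by the authors (Trim Galore), reads were placed on GRCm39 by HISAT2 2.1.0 and counted per Ensembl gene with featureCounts. Whether counting used strand, and how it treated multimapping reads, is not given in the sources used here, which bears on overlapping genes. Symbols, positions and exonic lengths were taken from the GENCODE annotation of GRCm39, in which 22281 of the 22430 genes matched.

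Testing was limited to genes exceeding 5 counts in 4 or more of the 8 libraries. The age groups were compared in edgeR 4.0.16 under R 4.3.3 (quasi-likelihood test) after TMM scaling, with no term besides age, and p-values were adjusted over all 16730 genes by Benjamini-Hochberg. Standard errors were taken from the fold change and its F statistic. The 10 genes, the gene lists and the tests were chosen with earlier results of these data known. The rule for names took all 10 genes with every library, the highest and lowest fold change of each pathway list, called genes of at least 1 CPM in it as optional additions, the 3 nearest patterns of Ucn, Rln3, Crh and Adcyap1 (log2 CPM, prior count 2, predicted genes left out), and Trim54, Cartpt and Nucb2. Promoters and their starts came from RefSeq (GRCm38.p6) and coding ends from the GRCm39 genome.

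Chi-square per degree of freedom between replicates was 8.18 or more for every pair, so each library was counted as a replicate, and p-values measure the spread between mice. The fit was also run on simulated counts to check the code, the outcome of which is not given here. A gene that was not called may still differ between the ages. Alternatives were other scaling factors, DESeq2 1.42.0 with and without quantile normalization, limma-voom (limma 3.58.1), other filters, trends of length or GC removed (lowess span 0.3), thinning to the smallest library, the replicate number as a block and each library left out in turn.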

Additional observations from a re-analysis of the deposited data

Results flagged for a closer look

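In a group of 4 libraries, a value was singled out when its gap to the nearest other library passed the 95% limit of Dixon for its share of the whole range, which chance gives in about 5% of groups. Of 82 groups examined, 7 met this.

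Rxfp3 was 1.1 CPM in 6m replicate 4 against 0.579 to 0.665 CPM in the other young libraries, and this is the library that overlapped the aged range. In the same library Rxfp1 was 0.227 CPM against 0.579 to 0.63 CPM, and Nucb2 was 7.11 CPM against 9.02 to 9.21 CPM. Arrb1 was 22.4 CPM in 6m replicate 1 against 26.3 to 26.9 CPM in the others. Trim54, the gene that overlaps Ucn, was 2.83 CPM in 6m replicate 2 against 1.8 to 1.92 CPM. The count of Rxfp3 over that of Rln3 was 3.58 in 24m replicate 2 against 0.857 to 1.29 in the other aged libraries. The total of 24m replicate 1 was 103462414 counts, the other aged libraries having 72936345 to 77044751.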

How the results depend on the processing

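The 10 genes were chosen on this contrast, so their calls under other settings describe the settings and add no independent evidence. The calls of Ucn and Rln3 as lower and of Adcyap1r1 as higher were kept under all 20 alternatives. Over these, the log2 fold change was -3.25 to -2.17 for Ucn, -2.67 to -1.55 for Rln3 and 1.69 to 2.20 for Adcyap1r1. Crh was called under all but the removal of the length trend and ranged from -1.54 to -0.57. Rxfp3 was called under all but DESeq2 on quantile-normalized counts, where it was 0.72, and this alternative also called Adcyap1 (-0.59) and Ucn3 (-0.65) lower and turned Gnas from -0.31 to 0.10. With each library left out in turn, the same 5 genes were called every time, with Crh at -1.33 to -1.18 and Rxfp3 at 0.83 to 1.25. With the length trend removed, 2 related peptides and receptors and 2 stress axis genes were called in place of 7 and 4, and the totals of calls of the other lists and of all genes stayed within 1.5 times under every alternative. Counts in 1 direction moved further, as for the related peptides called lower (1 in place of 5) and the processing genes called lower (3 in place of 1). The causes were not tested.

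With library totals alone, the median of all genes shifted to 0.21 and 5449 genes were called higher and 1746 lower, in place of 4237 and 3058. Crhbp (0.22), Crhr1 (0.19) and Crhr2 (0.18), close to 0 with TMM factors, moved with that shift. The replicate numbers did not pair the libraries, since libraries of the same number correlated by -0.348 to 0.271 in their deviations from the age means. The fit with the replicate number as a block called 7242 genes, 5 of the 10 genes, 7 related peptides and receptors, 10 signalling, 4 stress axis and 2 processing genes, each equal to the count without the block except for the 7295 of all genes.

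Depth limits Ucn3 (40 to 62 counts per library) and Ucn and Rln3 at 24m, each with 31 counts in replicate 2.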
